A study of Rattus norvegicus with 39 samples.

Results

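The genes described here encode enzymes that oxidise and conjugate drugs, steroids and fatty acids in rat liver: the cytochromes P450 of families 2, 3 and 4 (Cyp2, Cyp3, Cyp4), the UDP-glucuronosyltransferases (Ugt) and the cytosolic sulfotransferases (Sult). A gene was included when a probe set of the array was annotated to it alone and its symbol began with one of these family names. This gave 63 probe sets for 57 genes, of 10411 genes measured by a probe set of their own. Where a gene had several, which was the case for 6 genes, the probe set with the highest mean over all 39 arrays was used. The 57 genes comprised 23 Cyp2, 4 Cyp3, 10 Cyp4, 7 Ugt and 13 Sult genes.

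RNA came from bile ducts or hepatocytes that had been cut out of liver sections by laser capture, amplified, and hybridised to Affymetrix rat arrays. Sprague Dawley rats aged 8 weeks had been given alpha-naphthyl isothiocyanate (ANIT), a compound that injures bile ducts, as a single dose of 50 mg/kg in corn oil. Control rats (vehicle) received the corn oil without ANIT, at 10 ml/kg. Capture was done 2 or 6 h later, which made 8 groups. Each group held 5 arrays, except the vehicle bile duct group at 6 h, which held 4. The labels give separate rats within a group, but neither their sex nor whether the 2 kinds of capture were made from the same rats.

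Cytochromes P450 of families 2 and 3 insert oxygen into drugs and steroids, using electrons from NADPH through cytochrome P450 reductase (Por) and in part from cytochrome b5 (Cyb5a). Many Cyp4 enzymes instead hydroxylate the end of fatty acid and leukotriene chains. Ugt enzymes attach glucuronic acid from UDP-glucuronic acid, which Ugdh makes, and Sult enzymes attach sulfate from PAPS, which Papss1 and Papss2 make. The hepatocyte is the main site of all 3 reactions in liver, and several rat Cyp2c and Cyp3a genes are known for levels that differ between males and females.

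Some Ugt2b genes lie near each other on chromosome 14. Their promoters are shown because these genes differed widely between the captured regions and some of their promoters share sequence. The 3 windows below, from RefSeq on GRCr8, run 5′ to 3′ from 250 bases before to 50 bases after the gene's start. Capitals mark a run of 25 bases found in the windows of Ugt2b, Ugt2b15, Ugt2b35 and Ugt2b7.
Ugt2b35, chr14:21208191-21208490, + strand: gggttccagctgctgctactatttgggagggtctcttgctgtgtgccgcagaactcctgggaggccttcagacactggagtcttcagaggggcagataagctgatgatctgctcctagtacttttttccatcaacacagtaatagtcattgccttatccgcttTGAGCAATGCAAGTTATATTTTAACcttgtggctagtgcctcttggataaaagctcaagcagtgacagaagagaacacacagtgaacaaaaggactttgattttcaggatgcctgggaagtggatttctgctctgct
Ugt2b15, chr14:21122616-21122915, + strand: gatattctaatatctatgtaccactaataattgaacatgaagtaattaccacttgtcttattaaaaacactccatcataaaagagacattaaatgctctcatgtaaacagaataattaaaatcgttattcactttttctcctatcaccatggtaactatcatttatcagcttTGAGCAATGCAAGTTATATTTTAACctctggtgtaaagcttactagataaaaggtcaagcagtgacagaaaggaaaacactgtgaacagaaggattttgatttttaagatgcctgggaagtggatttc
Ugt2b1, chr14:21378632-21378931, + strand: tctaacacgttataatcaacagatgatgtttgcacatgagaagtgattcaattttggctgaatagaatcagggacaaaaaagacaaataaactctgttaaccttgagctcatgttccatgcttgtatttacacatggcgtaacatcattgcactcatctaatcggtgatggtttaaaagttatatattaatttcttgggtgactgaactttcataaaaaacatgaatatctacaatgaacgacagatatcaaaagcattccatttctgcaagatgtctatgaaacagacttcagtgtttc
Relative to the gene's start, the run began at -87 in Ugt2b35, -78 in Ugt2b15, -74 in Ugt2b and -90 in Ugt2b7. The run was picked as the longest one shared by Ugt2b35, Ugt2b, Ugt2b15 and Ugt2b7, so its presence in their windows was fixed in advance. It was found, reading both strands, in 7 of all 33469 rat promoter windows. The remaining windows were those of Ugt2b37, Ugt2b7l1 and LOC134478834. The longest run that Ugt2b1 shared with Ugt2b35 was 9 bases, against 31 for Ugt2b and for Ugt2b15. Among the 48 of the 57 genes with a window, the letters TTGCNCAA, read on both strands, occurred in 7 (14.6%), against 2.61% of all windows, and TATAAA in 15 (31.2%), against 14.2%. The 7 were Cyp2d2, Sult2a1, Sult2a2, Sult2a6, Ugt2b, Ugt2b15 and Ugt2b35. In Ugt2b, Ugt2b15 and Ugt2b35 the match overlaps the start of the 25-base run. These shares count close relatives as separate genes, so they do not show enrichment. These matches describe the letters only.

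Signals are log2 values, so a difference of 1 is a 2-fold difference, and the median of all values on all arrays was 4.03. Signals of different probe sets cannot be compared as amounts of RNA. In hepatocytes most of these genes gave a signal above that median, 41 of 57 in the vehicle groups at 2 and at 6 h and 40 after ANIT at both times. In bile duct 15 did in vehicle rats at 2 h, 25 after ANIT at 2 h, 31 in vehicle rats at 6 h and 19 after ANIT at 6 h. The highest mean signals in vehicle hepatocytes belonged to Cyp4f1 (11.17), Cyp3a2 (10.90), Cyp2b3 (10.84), Cyp2c6v1 (10.76), Cyp2c7 (10.75), Ugt2b35 (10.60), Cyp2c13 (10.59), Cyp2d2 (10.58), Cyp2c23 (10.54) and Cyp2c11 (10.52). The 3 lowest were Sult2a1 (1.61), Ugt8 (1.47) and Sult1d1 (1.31). Replicates of hepatocyte arrays were close, with a median SD over the 57 genes of 0.212, whereas the median SD among bile duct replicates was 0.64.

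**Figure D1:**
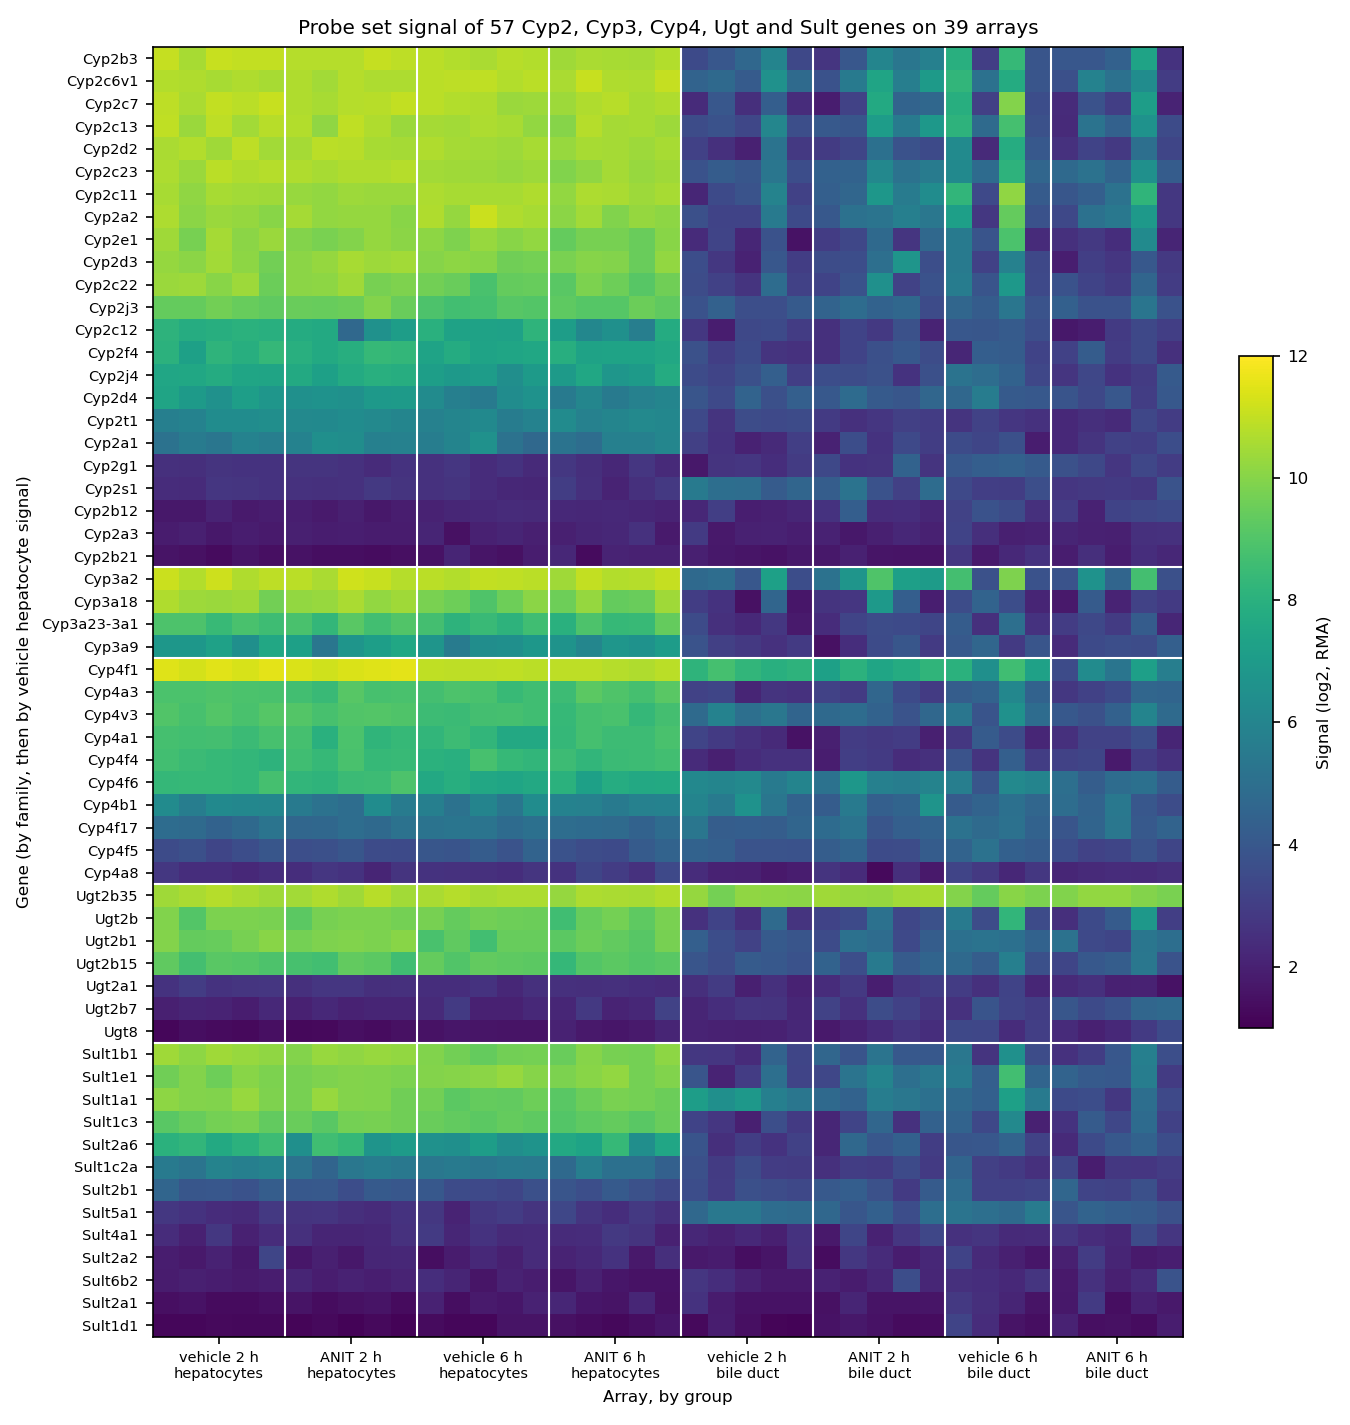
Heat map of the log2 signal of the 57 genes (rows, by family and then by vehicle hepatocyte signal) on the 39 arrays (columns, by group). Most genes vary little between hepatocyte columns, with Cyp2c12 and Sult2a6 among the exceptions, while in bile duct columns most genes are low and a few single arrays, such as vehicle 6 h replicate 3, are high across many Cyp2 and Cyp3 genes.

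What the bile duct captures held differed between arrays. The mean signal of 20 hepatocyte markers (among them plasma proteins and liver enzymes) was between 11.02 and 11.47 on every hepatocyte array, but ran from 4.16 to 9.74 on bile duct arrays, a 48.0-fold range. In vehicle bile duct it was 4.73, 5.55, 4.97, 7.35 and 5.04 at 2 h, and 8.54, 5.10, 9.74 and 5.09 at 6 h. After ANIT it was 5.42, 6.62, 8.09, 6.68 and 7.26 at 2 h, and 4.35, 6.21, 5.39, 8.44 and 4.16 at 6 h. The mean was 6.81 ± 0.98 (SD, n = 5) after ANIT against 5.53 ± 1.06 (SD, n = 5) in vehicle rats at 2 h. At 6 h it was 5.71 ± 1.74 (SD, n = 5) against 7.12 ± 2.39 (SD, n = 4). An exact two-sided permutation test did not tell ANIT from vehicle at 2 h (exact p = 0.111) or 6 h (exact p = 0.349). So few arrays with such spread cannot show that the levels were equal. The cholangiocyte markers, which define bile duct epithelium, bore out the captures in vehicle rats: 14 of 14 were higher in bile duct than in hepatocytes at 2 h (median log2 difference 5.42) and 13 of 14 at 6 h (median 4.50). In tissue captured in bulk, fewer cells of a type and less RNA per cell cannot be told apart.

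The comparison of bile duct with hepatocytes in vehicle rats asked where these enzymes were transcribed. Most of them were far lower in bile duct: of the 57 genes, 40 were lower and 3 higher at 2 h, where 52.2% of all probe sets passed the test (28.7% higher, 23.5% lower), and 39 were lower and 7 higher at 6 h, where 53.7% of all passed (29.3% higher, 24.4% lower). The same genes made up most of both counts, with 38 lower at both times and 3 higher at both. The median log2 difference of the 57 genes was -3.97 at 2 h and -3.31 at 6 h, against 0.16 and 0.23 over all probe sets. The 20 hepatocyte markers were all lower at both times, with medians of -6.11 and -4.35. Here and below, the test was limma with Benjamini-Hochberg adjustment over 15866 probe sets and a threshold of 0.05, and log2 differences are given ± SE.

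The Cyp2c genes, which oxidise steroids, arachidonic acid and many drugs, were lower in bile duct as a whole subfamily, 7 of 7 each time. Their differences lay between -7.79 and -5.07 at 2 h and between -4.62 and -3.69 at 6 h. Cyp2c7, a retinoid and steroid hydroxylase, was low on each bile duct array at 2 h. Its signals were 10.91, 10.59, 11.00, 10.86 and 11.08 in hepatocytes and 2.36, 3.97, 2.48, 4.28 and 2.39 in bile duct, groups that lay far apart. The difference was -7.79 ± 0.35 (adjusted p = 4.42e-10). The files give no detection calls, so bile duct signals this low may lie at background, where a difference understates the true one and its rank among genes is not fixed. Cyp2c11, the steroid hydroxylase typical of male rats, differed by -6.74 ± 0.49 at 2 h (adjusted p = 5.55e-08) and by -4.11 ± 1.06 at 6 h (adjusted p = 0.00623). At 6 h its bile duct signals were 8.22, 3.41, 10.19 and 4.17, against 10.56 to 10.71 in hepatocytes, so 1 bile duct array lay near the hepatocyte level, 1 clearly below it and 2 far below. The arrays at 8.22 and 10.19 were the 2 with the high hepatocyte marker signals, 8.54 and 9.74. Without them 45 of the 57 genes passed at 6 h, and the differences of Cyp2d2, Cyp2d3 and Sult1b1 at 6 h were -7.37, -6.64 and -6.57, larger than those given below with all arrays.

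Other drug-oxidising cytochromes were also lower, some to a like degree and some by less, such as Cyp2d4 (-3.02 at 2 h and -1.48 at 6 h). Cyp2e1, which oxidises ethanol and other small solvents, differed by -7.61 ± 0.34 at 2 h (adjusted p = 4.42e-10). The Cyp2d genes, whose enzymes oxidise many amine drugs, were lower in 3 of 3 cases at both times, Cyp2d2 by -7.48 ± 0.45 and -5.44 ± 0.80 (adjusted p = 7e-09 and 0.000124). Cyp2d3 differed by -5.42 ± 0.50 at 6 h (adjusted p = 2.44e-06). All 4 Cyp3a genes, enzymes of drug and steroid 6-beta-hydroxylation, were lower at both times, with differences from -7.65 to -3.97 at 2 h and from -6.16 to -2.52 at 6 h. Cyp3a18 differed by -7.65 ± 0.47 at 2 h (adjusted p = 8.55e-09). At 6 h its signals were 9.80, 9.57, 8.98, 9.58 and 10.09 in hepatocytes and 3.54, 4.49, 3.62 and 2.13 in bile duct, a difference of -6.16 ± 0.39 (adjusted p = 1.67e-07). Its bile duct signal was low on each of the 4 arrays, including the 2 with high hepatocyte markers.

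Cyp4 genes differed among themselves. Of the 5 Cyp4f genes, whose enzymes inactivate leukotrienes, 3 were lower at each time. Of the 3 Cyp4a genes, fatty acid hydroxylases driven by PPARA, 3 were lower at 2 h and 2 at 6 h. The 2 h call of Cyp4a8 was small (-0.47, adjusted p = 0.0222), and its other probe set lay on the opposite side of 0. That probe set differed by 0.25 at 2 h (adjusted p = 0.334) and was higher in bile duct by 0.96 at 6 h (adjusted p = 0.0197). Cyp4f1 kept a clear signal in bile duct, with 8.14, 8.74, 8.25, 7.93 and 8.12 in vehicle rats at 2 h, and differed by -3.20 ± 0.16 at 2 h (adjusted p = 1.3e-09) and by -3.31 ± 0.35 at 6 h. Cyp4f6 differed by -2.46 and -2.20 at the 2 times, and Cyp4v3, a fatty acid hydroxylase, by -3.84 and -3.48. The other probe set of Cyp4v3 differed by only -0.55 and -0.49. These differences of Cyp4f1, Cyp4f6 and Cyp4v3 were smaller than the median of the hepatocyte markers at each time. Some other Cyp4 genes were near or beyond that median, and the rest differed far less. Cyp4b1 differed by -0.50 at 2 h and -1.12 at 6 h. At their upper end the differences were 0.44 and 0.48 among Cyp4f genes, and -0.47 and 0.205 among Cyp4a genes. The largest deficit was -6.02 at 2 h and -4.84 at 6 h among Cyp4f genes, and -6.18 and -4.91 among Cyp4a genes.

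Among the conjugating enzymes, Ugt2b35 stood apart from its relatives. Its hepatocyte signals ran from 10.25 to 10.80 over all 20 arrays. In vehicle bile duct it gave 10.26, 9.68, 10.16, 10.13 and 10.09 at 2 h and 9.94, 9.41, 10.03 and 9.82 at 6 h, nearly as high as in hepatocytes although the groups did not overlap. The differences were -0.51 ± 0.15 (adjusted p = 0.00994), or 1.42-fold, at 2 h and -0.84 ± 0.20 (adjusted p = 0.00441), or 1.79-fold, at 6 h. Ugt2b15, with the same 25-base run in its promoter, differed by -5.16 and -4.65. Its signals at 2 h were 9.30, 8.71, 9.17, 9.08 and 8.93 in hepatocytes and 3.91, 3.57, 4.15, 4.02 and 3.75 in bile duct. Ugt2b differed by -6.54 and -4.37, and Ugt2b1, whose promoter lacks the run, by -5.89 and -4.21. Ugt2b7 was dim in hepatocytes and was higher in bile duct at 6 h, by 0.87 ± 0.28 (adjusted p = 0.021). The groups overlapped, and with 1 array left out it passed in 6 of 9 fits. At 2 h Ugt2b7 did not pass. The run was present in windows of genes with large and small differences and in that of the dim Ugt2b7. Whether the run bears on these differences was not tested. Whether the Ugt2b35 probe set also binds RNA of another Ugt2b gene was not tested.

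Of the 6 Sult1 genes, 5 were lower in bile duct at 2 h and 5 at 6 h. Sult1b1, which sulfates thyroid hormones and phenols, differed by -7.15 ± 0.32 at 2 h (adjusted p = 3.58e-10) and by -5.14 ± 0.60 at 6 h (adjusted p = 1.73e-05). Sult1c3 differed by -5.32 ± 0.60 at 6 h (adjusted p = 1.34e-05). Sult1a1, a phenol sulfotransferase, kept more signal in bile duct, with 7.11, 6.48, 6.86, 5.74 and 5.30 in vehicle rats at 2 h. Its differences were -3.74 ± 0.30 and -3.98 ± 0.46. Of the 4 Sult2 genes, hydroxysteroid sulfotransferases, 2 were lower at 2 h and 1 at 6 h. Sult2b1 was among those at 2 h (-0.68, adjusted p = 0.00892), but its other probe set did not bear this out. That probe set differed by 0.10 at 2 h (adjusted p = 0.597) and was higher in bile duct by 0.96 at 6 h (adjusted p = 0.0229).

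Only 3 genes were higher in bile duct at both times. Sult5a1 gave 4.70, 5.39, 5.39, 4.91 and 4.81 in bile duct at 2 h and 5.23, 5.02, 4.79 and 5.57 at 6 h, whereas no hepatocyte array of any group exceeded 3.35. The difference was 2.45 ± 0.18 (adjusted p = 5.7e-08) at 2 h, or 5.46-fold, and 2.50 ± 0.24 (adjusted p = 3.92e-06) at 6 h. Cyp2s1, a cytochrome known from epithelia outside the liver, gave 5.47, 4.98, 4.93, 4.15 and 4.57 in bile duct at 2 h against 2.34 to 2.74 in hepatocytes. It was 2.26 ± 0.21 higher at 2 h (adjusted p = 8.56e-07) and 0.86 ± 0.22 higher at 6 h (adjusted p = 0.00584). Ugt8, which makes galactosylceramide, was 0.73 ± 0.12 higher at 2 h (adjusted p = 0.000241) and 1.43 ± 0.24 higher at 6 h (adjusted p = 0.000292), at signals of at most 3.37. Its other probe set did not pass, with 0.08 at 2 h (adjusted p = 0.652) and 0.49 at 6 h (adjusted p = 0.263).

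At 6 h 4 more passed the test as higher in bile duct: Cyp2g1, Cyp2b12, Ugt2b7 and Cyp2b21. All 4 were dim in hepatocytes, and none passed at 2 h. The spread of signal over probe sets (SD) at 6 h was 1.81 on vehicle bile duct arrays and 2.27 on vehicle hepatocyte arrays. Its part in these 4 calls was not tested. Cyp2g1, known from olfactory mucosa, was at 4.02, 4.29, 4.42 and 4.12 in bile duct against 2.33 to 2.74 in hepatocytes, a difference of 1.68 ± 0.20 (adjusted p = 2.01e-05). Cyp2b12, known from sebaceous glands, differed by 1.02 ± 0.26 (adjusted p = 0.00532), and Cyp2b21, at a mean bile duct signal of 2.36, by 0.64 ± 0.25 (adjusted p = 0.0483).

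**Figure D2:**
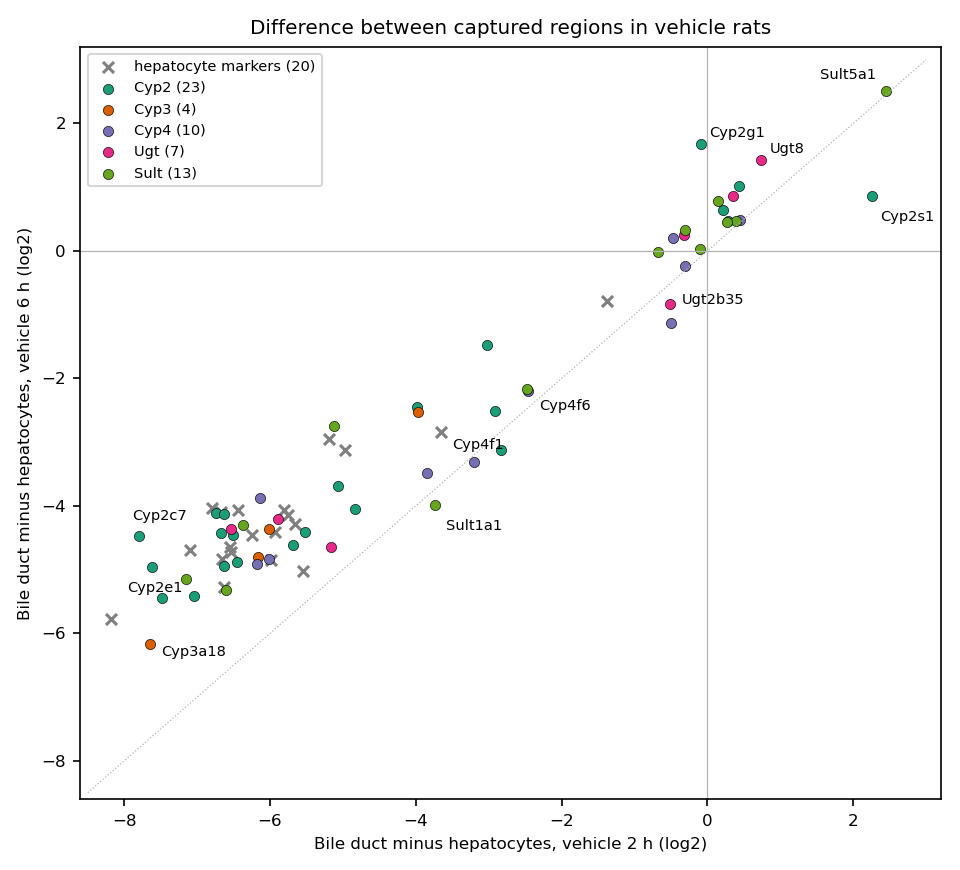
Log2 difference of bile duct minus hepatocytes in vehicle rats at 2 h (x axis) and 6 h (y axis), 1 point per gene, coloured by family, with 20 hepatocyte markers as crosses and the line of equal differences dotted. Most genes lie among the crosses at the lower left, Ugt2b35 lies near 0 on both axes, and Sult5a1, Cyp2s1 and Ugt8 lie above 0 on both.

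The size of these deficits was set beside that of the hepatocyte markers, to see how much of the bile duct signal moved with hepatocyte RNA. The 29 genes with a vehicle hepatocyte signal of at least 8, a cut chosen after the data had been seen, were all lower in bile duct at each time. The cut was made on hepatocyte arrays of the comparison itself, which favours genes that are lower in bile duct. The share that was lower among all probe sets this bright was not computed, so this count has no background beside it. At each time 26 of the 29 lay inside the range of the hepatocyte markers, with albumin left aside (-8.18 to -3.66 at 2 h and -5.77 to -2.84 at 6 h). Cyp4f1, Cyp4f6 and Ugt2b35 had smaller deficits than any marker in that range at 2 h, and Cyp4f6 and Ugt2b35 did at 6 h, when Cyp3a18 had a larger one. Albumin itself differed by only -1.37 at 2 h and -0.79 at 6 h. With albumin kept in the range, only Ugt2b35 at 2 h, of the 29, had a smaller deficit than every marker. The other 28 genes, from dim ones to some just under the cut such as Sult2a6 and Cyp2c12 (-5.12 and -5.07 at 2 h), ran from -5.12 to 2.45 and from -4.05 to 2.50.

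The signal of each gene was also fitted on the hepatocyte marker level over the 19 bile duct arrays, with the 4 group means in the model. This fit, added after the data had been seen, gives the log2 change of a gene per log2 unit of marker signal within groups. Of the 57 genes, 18 had a positive slope past the threshold and 0 a negative one, against 1.13% of all probe sets past it in either direction and 1.10% with a positive slope. All 18 belonged to the 29 bright genes, with slopes between 0.33 and 1.31 and a median of 0.83. The hepatocyte markers, which make up the covariate, had slopes from 0.43 to 1.35, while none of the cholangiocyte, macrophage, endothelial or fibroblast markers passed. Macrophage markers had slopes from -0.05 to 0.31, and C1qb was close to the threshold (0.27, adjusted p = 0.0556).

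Cyp3a2 and Cyp2c11 followed the markers most closely. Cyp2c11 gave 2.20, 3.48, 3.81, 5.90 and 3.13 in vehicle bile duct at 2 h, 4.33, 4.62, 6.82, 5.57 and 6.35 after ANIT at 2 h, 8.22, 3.41, 10.19 and 4.17 in vehicle rats at 6 h, and 3.93, 4.35, 5.15, 8.20 and 2.80 after ANIT at 6 h. In each group its highest value fell on the array with the highest marker level. The slope was 1.22 (adjusted p = 4.31e-10). Cyp3a2, a testosterone 6-beta-hydroxylase, had a slope of 1.29 (adjusted p = 1.43e-11) and Cyp2c7 one of 1.31 (adjusted p = 1.84e-09). Without the 2 arrays farthest from the median marker level, the slopes of Cyp2c11, Cyp3a2 and Cyp2c7 were 1.10, 1.25 and 1.24, and 13 of the 57 genes passed.

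Slopes were lower for Cyp2e1 (0.95), Ugt2b (0.88), Cyp2d2 (0.79), Sult1e1 (0.66), which sulfates estrogens, Sult1b1 (0.61), Cyp2c23 (0.59), Cyp3a23-3a1 (0.41) and Ugt2b15 (0.33), all past the threshold. The 11 bright genes that did not pass included Ugt2b35 (0.04, adjusted p = 0.943), Ugt2b1 (0.10), Cyp4f6 (0.13), Sult1a1 (0.27, adjusted p = 0.523), Cyp4v3 (0.31, adjusted p = 0.148) and Cyp4f1 (0.36, adjusted p = 0.0725). Ugt2b35 thus kept a bile duct signal between 9.41 and 10.54 on arrays whose hepatocyte markers ranged 48.0-fold. Hepatocyte RNA and anything that moves with it within groups cannot be told apart by this fit.

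**Figure D3:**
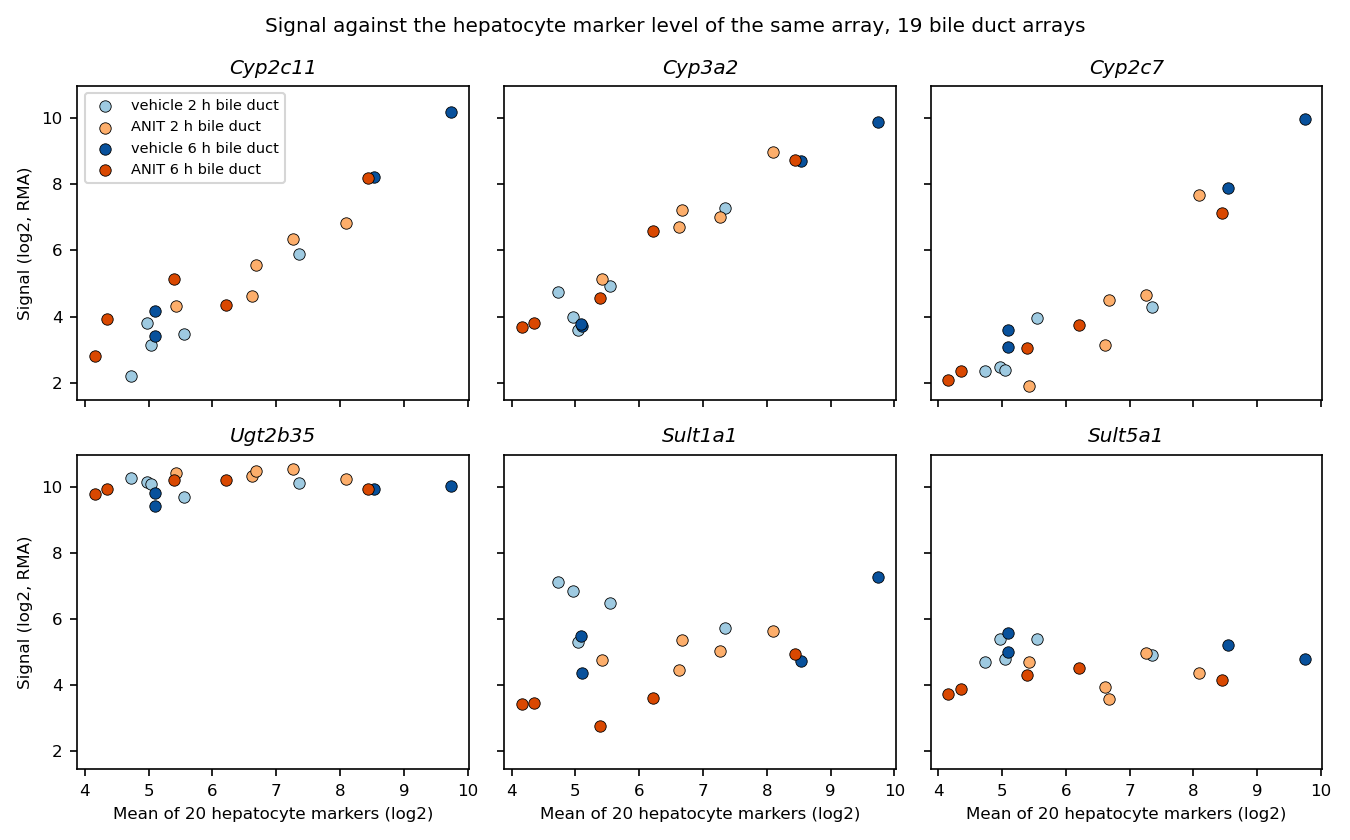
Log2 signal of single genes (y axes) against the mean log2 signal of 20 hepatocyte markers (x axes) on the 19 bile duct arrays, coloured by group. Cyp2c11, Cyp3a2 and Cyp2c7 are highest on arrays of high marker level, and Ugt2b35 stays between 9.41 and 10.54. The slopes of Sult1a1 and Ugt2b35 did not pass the test.

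The comparison of ANIT with vehicle in hepatocytes asked whether the dose altered these enzymes in the cells that hold most of them. By limma none of the 57 genes passed at 2 h or at 6 h, and none of all probe sets did (0%). At an unadjusted p under 0.05 there were 4 genes of the 57 at 2 h and 11 at 6 h, of 1195 and 1285 probe sets. The median log2 change of the 57 genes was -0.01 at 2 h and 0.02 at 6 h.

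Cyp2c12, the steroid sulfate hydroxylase typical of female rats, had the lowest values after ANIT at both times. At 2 h its hepatocyte signals were 7.75, 7.68, 4.70, 6.58 and 7.14 after ANIT against 8.13, 7.81, 7.89, 8.03 and 7.96 in vehicle rats, without overlap. The difference was -1.19 ± 0.46 (adjusted p = 0.609). At 6 h they were 7.12, 6.10, 6.50, 5.69 and 7.76 against 7.98, 7.33, 7.33, 7.31 and 8.15, where the groups overlapped, and the difference was -0.99 ± 0.32 (adjusted p = 0.464). In the authors' deposited table the p-values of Cyp2c12 in hepatocytes were 0.00816 at 2 h and 0.00804 at 6 h, with changes of -0.74 and -0.65 on the log2 scale, and both were 1 after adjustment.

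Other genes with the smallest p in hepatocytes at 2 h were Cyp2a1 (0.54 ± 0.17, adjusted p = 0.534), Sult6b2 (0.15, adjusted p = 0.723), Cyp2d3 (0.24, adjusted p = 0.746), Cyp4b1 (-0.58, adjusted p = 0.609) and Sult1c2a (-0.45, adjusted p = 0.639). At 6 h Sult2a6, a hydroxysteroid sulfotransferase, was at 7.64, 7.39, 8.36, 6.45 and 7.53 after ANIT and at 6.55, 6.48, 7.13, 6.43 and 6.67 in vehicle rats, a difference of 0.82 ± 0.26 (adjusted p = 0.464). At 6 h Cyp4a1, a fatty acid hydroxylase, differed by 0.52 (adjusted p = 0.492), Cyp2j3, an arachidonic acid epoxygenase, by 0.36 (adjusted p = 0.52), Cyp2a2, a testosterone hydroxylase, by -0.50 (adjusted p = 0.465) and Cyp2e1 by -0.41 (adjusted p = 0.477). None of these passed the test. The change in the ANIT effect from 2 to 6 h was tested itself, and none of the 57 genes passed, nor did any probe set (0%; 5 of the 57 and 1072 of all at an unadjusted p under 0.05). The smallest p were those of Sult2a6, 1.52 (adjusted p = 0.673), and Cyp4a1, 0.76 (adjusted p = 0.686).

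Between 2 and 6 h the vehicle hepatocytes themselves differed. Of the 57 genes 3 rose and 14 fell, against 9.44% of all probe sets higher and 12.8% lower (22.2% in all). Sult2a6 fell most, from 8.03, 8.25, 7.68, 8.08 and 8.55 at 2 h to 6.55, 6.48, 7.13, 6.43 and 6.67 at 6 h, without overlap, by 1.47 ± 0.17 on the log2 scale (adjusted p = 0.000125). Without replicate 1 at 2 h the count of 17 was 10. Time after dosing, time of day and any batch of processing cannot be told apart here.

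Cyp2d4, known from brain, fell by 0.88 ± 0.21 (adjusted p = 0.0083), but its other probe set differed by -0.17 (adjusted p = 0.737). Cyp2c22 fell by 0.78 (adjusted p = 0.0083), Cyp4f6 by 0.77 ± 0.12 (adjusted p = 0.000829) and Cyp3a18 by 0.71 (adjusted p = 0.0252). The others that fell were Sult1b1, Cyp2j4, Cyp4a1, Sult1a1, Ugt2b1, Cyp2j3, Cyp4f1, Sult2b1 and Cyp4v3. The other probe sets of Sult2b1 (0.16, adjusted p = 0.361) and Cyp4v3 (0.30, adjusted p = 0.317) lay on the opposite side of 0 and did not pass. The 3 that rose were low on the arrays: Cyp4f5 by 0.46 (adjusted p = 0.0445), Sult2a1 by 0.39 (adjusted p = 0.0457) and Cyp2b12 by 0.39 (adjusted p = 0.0222). The hepatocyte marker level was 11.27 at 6 h and 11.41 at 2 h, that of pericentral hepatocyte markers 7.22 and 6.89, and the spread of signal over probe sets (SD) 2.27 and 2.34. Each differed by an exact two-sided permutation test (p = 0.00794, the smallest that 5 against 5 arrays can give), and 5 of 9 macrophage markers fell and 1 rose (median -0.56). Their part in these changes was not tested.

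**Figure D4:**
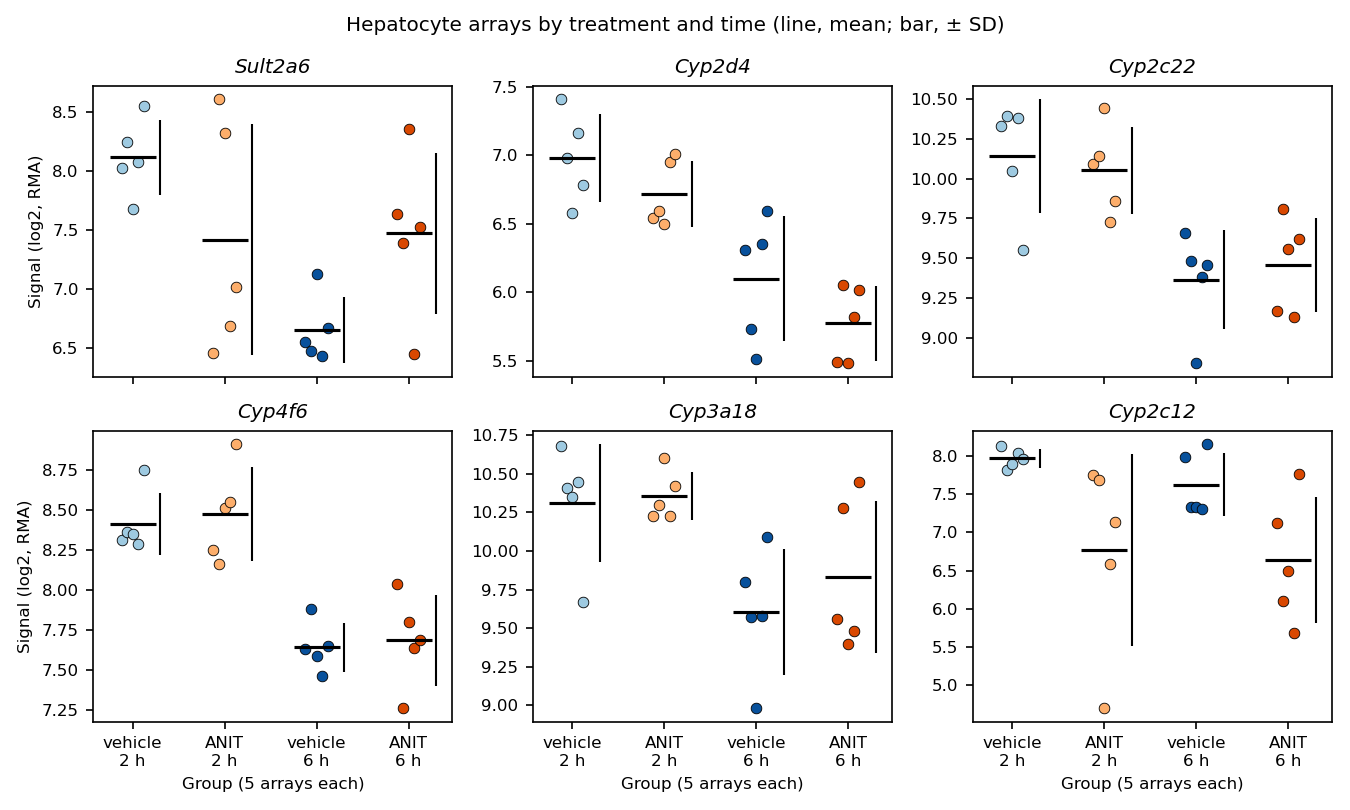
Log2 signal (y axes) of 6 genes in the 4 hepatocyte groups (x axes), with 1 point per array, the group mean as a line and ± SD as a bar at its side. Sult2a6, Cyp2d4, Cyp2c22, Cyp4f6 and Cyp3a18 are lower in vehicle rats at 6 h than at 2 h, and Cyp2c12 has its lowest values after ANIT.

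In bile duct 2 h after ANIT, none of the 57 genes passed the limma test, against 1.12% of all probe sets (0.258% higher, 0.863% lower), and 12 of the 57 had an unadjusted p under 0.05, as had 2675 of the 15866 probe sets. Without vehicle replicate 4, whose marker level of 7.35 was the highest of its group, 4 passed. The log2 change was above 0 in 41 of the 57 and below 0 in 16, with a median of 0.35, against 0.03 over all probe sets. The hepatocyte markers lay above vehicle in 20 of 20 cases, with a median of 1.47, and none of them passed. With the marker level as a covariate the median of the 57 genes was 0.13.

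The genes with the smallest p among those above vehicle were ones that also followed the hepatocyte markers. Cyp3a2 gave 5.13, 6.72, 8.97, 7.22 and 7.02 after ANIT and 4.75, 4.93, 4.00, 7.27 and 3.59 in vehicle rats, with overlap, a change of 2.10 ± 0.67 (adjusted p = 0.13). Sult1b1 differed by 1.20 ± 0.38 (adjusted p = 0.126) and Cyp2c11 by 1.83 ± 0.59 (adjusted p = 0.136). Below vehicle lay Sult1a1, with 4.77, 4.45, 5.65, 5.36 and 5.04 after ANIT against 7.11, 6.48, 6.86, 5.74 and 5.30, a change of -1.24 ± 0.35 (adjusted p = 0.0899). Sult5a1 differed by -0.72 (adjusted p = 0.215) and Cyp4v3 by -0.61 (adjusted p = 0.298). These 3 lay on the other side of vehicle from the hepatocyte markers.

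In the authors' deposited table for bile duct at 2 h, 8 of the 57 genes had a p-value under 0.05, and 1 of them, Ugt2b35, passed after adjustment. That table gives Ugt2b35 a change of 0.39 on the log2 scale (adjusted p = 0.00635). Its signals after ANIT were 10.43, 10.32, 10.24, 10.49 and 10.54, with 4 of 5 above the highest vehicle value of 10.26. The region difference of the ANIT effect at 2 h, tested itself, passed for none of the 57 genes, against 1.02% of all probe sets. Sult1b1 (1.31, adjusted p = 0.136) and Cyp2c11 (1.95, adjusted p = 0.167) had the smallest p, and 4 genes passed without vehicle bile duct replicate 4.

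In bile duct 6 h after ANIT, 3 of the 57 genes fell and none rose, against 1.34% of all probe sets that fell and 5.17% that rose (6.51% in all). The change was below 0 in 53 of the 57 genes, with a median of -0.56, against -0.05 over all probe sets. The hepatocyte markers lay below vehicle in 20 of 20 cases, with a median of -1.47, and none passed. With their level as a covariate the median of the 57 genes was -0.35, and without the 3 arrays of highest marker level (2 vehicle, 1 ANIT) it was -0.22. The spread of signal over probe sets was larger on the ANIT arrays (SD 2.01 ± 0.04, n = 5) than on the vehicle arrays (1.81 ± 0.09, n = 4; exact two-sided permutation p = 0.0159, the smallest possible here, 0.0954 after adjustment), and its part in the changes was not tested.

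The 3 genes that fell had modest bile duct signals. Cyp4f5, a relative of the leukotriene hydroxylases, gave 3.60, 3.19, 3.29, 3.81 and 3.28 after ANIT against 4.50, 5.14, 4.37 and 4.18, a fall by 1.11 ± 0.29 on the log2 scale (adjusted p = 0.0353). Cyp2c12 gave 1.69, 1.87, 2.86, 3.38 and 3.06 against 3.99, 3.93, 4.17 and 3.65 and fell by 1.36 ± 0.37 (adjusted p = 0.0383). Sult5a1 gave 3.88, 4.51, 4.30, 4.17 and 3.73 against 5.23, 5.02, 4.79 and 5.57 and fell by 1.03 ± 0.29 (adjusted p = 0.0459). In each of the 3 the groups did not overlap, as in Cyp2d4 and Cyp2g1, which did not pass. The share of all probe sets without overlap was not computed, so this adds nothing to the test of the 3.

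These 3 calls were close to the threshold. Without the 3 arrays of highest marker level the changes of Cyp4f5, Cyp2c12 and Sult5a1 were -1.32, -1.42 and -1.19, as large as before, with adjusted p of 0.112, 0.134 and 0.141. With the marker level as a covariate the adjusted p were 0.0641, 0.0868 and 0.0789. The count was 0 without vehicle replicate 1 or 3 or ANIT replicate 1 or 3, and 1 without ANIT replicate 2. With 1 array left out, Cyp4f5 passed in 1 of 9 fits, Cyp2c12 in 3 and Sult5a1 in 1. Cyp2c12 in vehicle bile duct at 2 h was at 2.77, 1.87, 3.40, 3.48 and 2.94, with 3 of 5 arrays inside its range after ANIT at 6 h, while Sult5a1 was at 4.70 to 5.39 there, above each of its ANIT values at 6 h.

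In the authors' deposited table for bile duct at 6 h, 4 of the 57 genes had a p-value under 0.05 and none passed after adjustment. Among them were Sult1a1 (-2.23 on the log2 scale, p-value 0.00255) and Sult5a1 (-0.82, p-value 0.0183).

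Other genes lay below vehicle at 6 h without passing. Cyp4f1 gave 3.50, 6.29, 5.26, 7.20 and 5.71 after ANIT and 8.02, 6.47, 8.61 and 7.30 in vehicle rats, a change of -2.01 ± 0.61 (adjusted p = 0.0614). Sult1a1 differed by -1.81 ± 0.54 (adjusted p = 0.0582), Cyp2j4 by -1.34 (adjusted p = 0.0648), Cyp2g1 by -0.99 (adjusted p = 0.0539), Cyp2c11 by -1.61 ± 1.23 (adjusted p = 0.459) and Cyp3a2 by -1.04 ± 1.25 (adjusted p = 0.659). Ugt2b35 was at 9.92, 10.22, 10.21, 9.94 and 9.79 after ANIT, a change of 0.22 (adjusted p = 0.674).

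**Figure D5:**
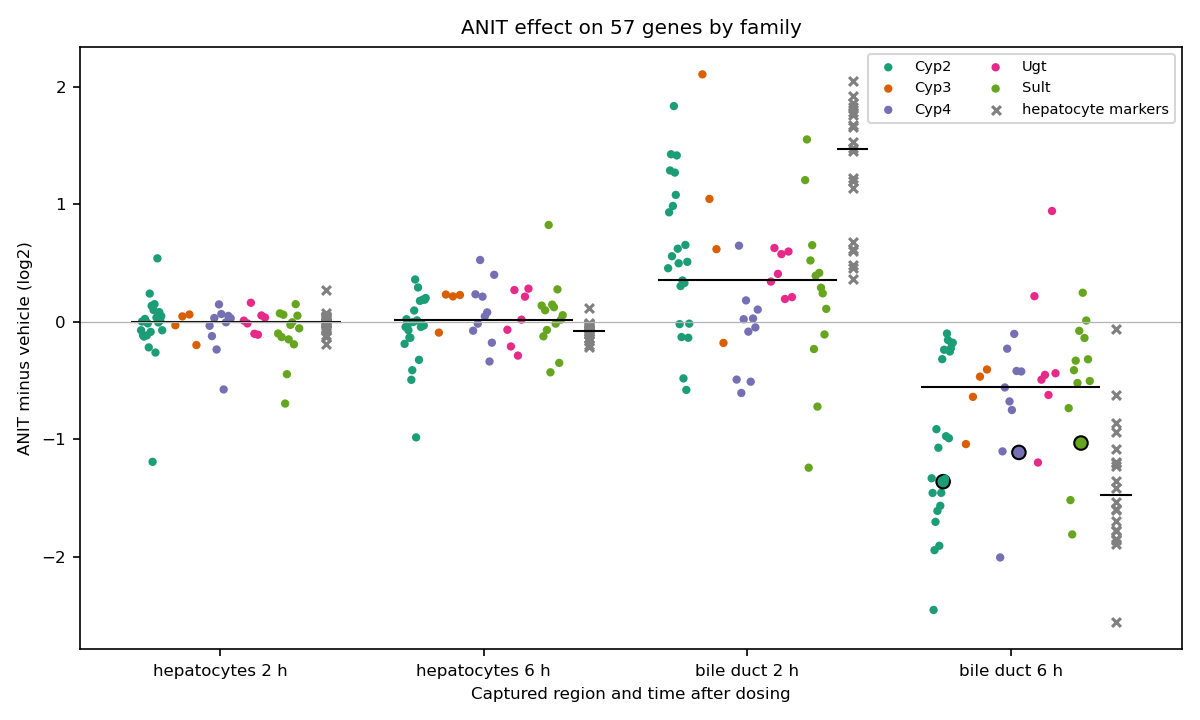
Log2 change after ANIT (y axis) of each of the 57 genes, coloured by family, and of 20 hepatocyte markers (crosses), for each captured region and time (x axis), with medians as horizontal lines and genes past the threshold ringed in black. In hepatocytes the medians lie near 0, and in bile duct the genes lie mostly on the same side as the markers, around a median of 0.35 at 2 h and of -0.56 at 6 h.

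The difference between the ANIT effect in bile duct and that in hepatocytes at 6 h was tested itself, on arrays shared with the comparison above. It was below 0 and past the threshold for 4 of the 57 genes and above 0 for none, against 1.84% and 5.21% of all probe sets (7.05% in all). Sult1a1 in bile duct gave 3.47, 3.61, 2.77, 4.96 and 3.44 after ANIT against 4.74, 4.36, 7.27 and 5.48, and changed by 0.10 in hepatocytes, a difference between regions of -1.91 ± 0.58 (adjusted p = 0.0486). Cyp2j4, an arachidonic acid epoxygenase, gave 2.70, 3.33, 2.60, 2.93 and 4.12 against 5.18, 4.94, 4.44 and 3.34, and 0.29 in hepatocytes, a difference of -1.63 ± 0.46 (adjusted p = 0.0348). The ANIT and vehicle arrays of bile duct overlapped in both genes.

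For Sult5a1 the region difference was -1.16 ± 0.33 (adjusted p = 0.0339), with a hepatocyte change of 0.12. Cyp2g1 gave 3.73, 3.37, 2.73, 3.33 and 2.94 in bile duct against 4.02, 4.29, 4.42 and 4.12, without overlap, and -0.02 in hepatocytes, a difference of -0.97 ± 0.29 (adjusted p = 0.0449). The count of 4 was 0 to 2 without hepatocyte vehicle replicate 1, 2, 3, 4 or 5, hepatocyte ANIT replicate 1, 2, 4 or 5, or bile duct ANIT replicate 1, 3 or 5. With the hepatocyte marker level as a covariate Cyp2j4 and Sult5a1 still passed (adjusted p = 0.0465 and 0.0375), and Sult1a1 and Cyp2g1 did not (0.0606 and 0.0587).

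Vehicle bile duct also differed between the 2 times, on the same 6 h arrays. Of the 57 genes 6 rose and 1 fell from 2 to 6 h, against 5.38% and 8.66% of all probe sets (14.0% in all). Cyp4a3, a fatty acid hydroxylase, rose from 3.18, 3.32, 2.12, 2.66 and 2.55 to 4.24, 4.47, 6.09 and 4.47, without overlap, by 2.05 ± 0.39 (adjusted p = 0.00827). Cyp2g1 rose from 1.73, 2.66, 2.72, 2.45 and 2.91 to the values above, by 1.72 ± 0.28 (adjusted p = 0.00504). The rises of Ugt2b1 (1.11, adjusted p = 0.0264), Cyp4f4 (1.07, adjusted p = 0.0483), Cyp2c12 (1.04, adjusted p = 0.0477) and Ugt8 (0.98, adjusted p = 0.0291) were smaller. Cyp2s1 fell from 5.47, 4.98, 4.93, 4.15 and 4.57 to 3.41, 3.02, 2.99 and 3.64, by 1.56 ± 0.30 (adjusted p = 0.00899).

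The count of 7 was 3 without replicate 3 at 2 h, 4 without replicate 2, 4 or 5 at 2 h, and 18 without replicate 4 at 6 h. The median change of the 57 genes with time in vehicle bile duct was 0.78, that of the hepatocyte markers was 1.73 and that of the cholangiocyte markers, of which 6 of 14 fell, was -0.94. With the marker level as a covariate the median of the 57 genes was 0.41. The mean cholangiocyte marker level was 7.98 at 6 h and 8.78 at 2 h (exact two-sided permutation p = 0.0159, 0.0477 after adjustment). The spread of signal over probe sets was also smaller on the 6 h vehicle bile duct arrays (SD 1.81 ± 0.09, n = 4) than on those at 2 h (2.09 ± 0.07, n = 5; exact two-sided permutation p = 0.0159, 0.0477 after adjustment). The part of the marker levels and of spread in these changes, the fall of Cyp2s1 included, was not tested.

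The enzymes and factors that serve these families were read from a list of 26 genes, of which 23 were measured. In bile duct Ugdh, which makes UDP-glucuronic acid, rose after ANIT at both times. At 2 h it was at 10.75, 9.75, 10.90, 10.84 and 10.58 against 9.64, 9.11, 9.27, 9.26 and 9.68 in vehicle rats, a rise by 1.17 ± 0.26 (adjusted p = 0.043), and at 6 h at 10.40, 10.18, 10.71, 10.59 and 10.28 against 9.11, 9.17, 9.80 and 9.57, a rise by 1.02 ± 0.28 (adjusted p = 0.0409). All ANIT values lay above all vehicle values at both times. The change in bile duct exceeded that in hepatocytes by 1.21 at 2 h (adjusted p = 0.0304) and by 1.05 at 6 h (adjusted p = 0.0187).

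One other gene of the 23 changed in bile duct: Onecut1, a transcription factor of liver and bile duct development, fell by 2.03 ± 0.36 at 2 h (adjusted p = 0.0172). Papss1 (-1.25, adjusted p = 0.0711) and Cyb5a (-1.41, adjusted p = 0.14) did not pass at 2 h, nor did Pgrmc1 (1.19, adjusted p = 0.0708), a haem-binding partner of cytochromes P450, Papss2 (-1.10, adjusted p = 0.0771) or the growth hormone receptor Ghr (-1.29, adjusted p = 0.0935) at 6 h. The change of Pgrmc1 at 6 h did differ between regions, by 1.36 (adjusted p = 0.0346). In hepatocytes none of the 23 passed at either time. Por differed by 0.89 at 6 h (adjusted p = 0.211), Onecut1 by 1.55 at 6 h (adjusted p = 0.446) and the nuclear receptor Nr0b2 by 0.98 at 2 h (adjusted p = 0.534).

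In vehicle rats 16 of the 23 were lower in bile duct than in hepatocytes and 3 higher at 2 h, and 14 and 3 at 6 h, against 23.5% lower and 28.7% higher over all probe sets at 2 h and 24.4% and 29.3% at 6 h. Ghr differed by -6.87 and -5.33, and the xenobiotic receptor Nr1i2 (PXR) by -3.67 at 2 h. Papss1 was higher in bile duct by 4.55 and 3.58. In vehicle hepatocytes from 2 to 6 h 4 of the 23 fell, a share near the 12.8% over all probe sets, among them Stat5b, which carries growth hormone signals, by 1.09 (adjusted p = 0.00461), and Hnf4a, a transcription factor of hepatocytes, by 0.59, and Bpnt1 rose by 0.49. In vehicle bile duct Onecut1 fell by 2.47, Papss1 fell by 0.92 and Ahr, the dioxin receptor, rose by 1.21.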

How the data were processed

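The deposited log2 probe set signals had been made by the authors with RMA, per the submitters' processing notes, with no version given; RMA corrects background, quantile-normalises arrays and summarises probes. Per the labels' protocols, RNA was isolated with PicoPure and amplified with NuGen Ovation. The authors' deposited tables hold the log10 ratio of ANIT over vehicle with a p-value from Rosetta Resolver for each probe set, whose adjustment is not given in the sources used here; they were adjusted here (Benjamini-Hochberg) and ratios turned to log2. Of 15923 probe sets, 57 controls were left out. A supplied annotation gave 1 symbol for 12783, several for 312 and none for 2771 of the 15866 tested; 56 of the 57 genes matched the RefSeq table. Of the chosen probe sets, 54 end in plain _at, and Cyp2c6v1, Cyp2j3 (_a) and Cyp2c13 (_s) may bind several transcripts. Signals ran from 0.9 to 14.21.

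Each comparison was fitted on its own groups in R 4.3.3 with limma 3.58.1 (two-sided, eBayes, no covariate), tested beforehand on simulated data; differences of effects were interaction contrasts over 4 groups. Array data have no counts, and the number of arrays limits precision. The labels state separate rats per group. Same-numbered arrays of different groups correlated between -0.199 and 0.348, with no pair of groups above 0.1 throughout, so numbers were not taken as pairs. Between bile duct and hepatocytes, arrays correlated best with their own number in 3 of 5 cases for vehicle at 2 h and for ANIT at 6 h. The count was 0 of 5 for ANIT at 2 h and 0 of 4 for vehicle at 6 h. Whether the regions shared rats was not settled by this. The genes, marker lists and tests were chosen with earlier results of these data known. Genes were named by rule: the 10 highest and 3 lowest in vehicle hepatocytes, those past a threshold by size, and those of smallest p where none passed; others beside them, such as relatives of a named gene, were chosen after their values were seen. Alternatives were renormalisation, array medians subtracted, dim probe sets removed, trend and robust variance (statmod 1.5.0) and 1 fit of 39 arrays. Further ones were a replicate block fitted as fixed terms, the authors' p-values, the marker level as covariate, and single arrays left out. Chosen after seeing the data were fits of all bile duct groups, the slope fit, and removal of arrays of low spread or high marker level.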

Additional observations from a re-analysis of the deposited data

Results flagged for a closer look

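At 6 h the ANIT effect differed between bile duct and hepatocytes for 4 of the 57 genes by the interaction test: Sult1a1 (log2 difference of effects -1.91), Cyp2j4 (-1.63), Sult5a1 (-1.16) and Cyp2g1 (-0.97). In each the effect was below 0 in bile duct and between -0.02 and 0.29 in hepatocytes. The 4 vehicle bile duct arrays enter all 4 values, and 2 of them had hepatocyte marker levels of 8.54 and 9.74. Of 47 sets of replicates of single genes examined for a sample far from the others, none had one.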

How the results depend on the processing

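Counts below are of the 57 genes past the threshold, and the cause of each move was not tested. Apart from those leaving out 1 array, 77 recomputed counts stayed within 1.5 times the value reported and 19 did not, and no result changed direction. In bile duct at 2 h (0 reported), 1 fit of all 39 arrays gave 4 (2 higher, 2 lower), the authors' p-values 1, and leaving out 1 array 0 to 4, the 4 without vehicle replicate 4. In bile duct at 6 h (3), the count was 5 without dim probe sets, 18 (1 higher, 17 lower) in the 39-array fit, 6 in the fit of 4 bile duct groups and 6 with the marker level added to it. It was 0 with the authors' p-values, with the marker covariate, without the 3 arrays of high marker level and, leaving out 1 array, 0 to 3. For vehicle hepatocytes over time (17), the 39-array fit gave 2 and leaving out 1 array 10 to 19. For vehicle bile duct over time (7), quantile normalisation again gave 4, removing dim probe sets 4, the 39-array fit 27 (24 higher, 3 lower) and leaving out 1 array 3 to 18. For the region difference at 6 h (4), subtracting array medians gave 2, trend and robust variance 2, the covariate 2 and leaving out 1 array 0 to 6, and at 2 h (0) leaving out 1 array gave 0 to 4. Bile duct against hepatocytes kept 42 to 45 at 2 h and 44 to 47 at 6 h when 1 array was left out, and the slope count 16 to 19. Over all probe sets, 178 passed in bile duct at 2 h and 1634 in the 39-array fit, and at 6 h 1033 against 4564.

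With the replicate number as a block, which the labels do not say pairs rats, bile duct at 6 h gave 0 of the 57 genes (400 of all probe sets), vehicle bile duct over time 3 and the region difference at 6 h 1.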

Other observations

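Several probe sets of these families are annotated to more than 1 gene and so name none; they were looked at after the main results. The probe set annotated to both Cyp2b2 and Cyp2b1, the phenobarbital-inducible cytochromes, was at 9.71, 10.50, 10.31, 9.33 and 10.54 in hepatocytes 6 h after ANIT against 8.39, 8.55, 8.16, 9.22 and 8.36 in vehicle rats, without overlap. The change of 1.54 ± 0.24 had the smallest adjusted p of all probe sets in that comparison, 0.0653, and did not pass. At 2 h its change was 0.01. Its ANIT effect at 6 h was 1.72 lower in bile duct than in hepatocytes (adjusted p = 0.0186).

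A probe set annotated to 8 Ugt1a genes, which share their last exons, rose in bile duct 6 h after ANIT from 5.82, 4.62, 7.43 and 6.19 to 7.52, 7.20, 7.85, 7.72 and 7.77, by 1.60 ± 0.44 (adjusted p = 0.0414), with overlap only at the vehicle array of 7.43. The other Ugt1a probe set differed by 0.57 (adjusted p = 0.216). In the same comparison the probe set annotated to RGD1562392 and Sult1c2 fell from 4.21, 3.70, 3.93 and 3.96 to 3.31, 2.25, 2.57, 2.85 and 2.96, without overlap, by 1.16 ± 0.29 (adjusted p = 0.029). At 2 h in bile duct the probe set of Cyp2a2 and Cyp2a1 rose by 1.26 (adjusted p = 0.0441) and that of Cyp2d5 and Cyp2d1 by 1.48 (adjusted p = 0.0457), beside a hepatocyte marker median 1.47 above vehicle, whose part was not tested.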
